A study of Mus musculus with 16 samples.

Results

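The reactive astrocyte genes Gfap, Vim, Osmr, Cd44, Steap4, Serpina3n, Timp1, Cd109 and Lcn2 were followed through single-nucleus RNA-seq of the mouse hippocampus. These 9 genes, 8 from a pan-reactive astrocyte list and Cd109 from the A2 list described below, were found by symbol and are 9 of the 32285 genes in the count matrices. The series holds 16 libraries from male mice, with 4 libraries in each of 4 groups. WT mice (genotype label C57BL/6) were 2 months 23 days old, and mice lacking the type I interferon receptor chain gene (Ifnar1-/-) were 3 months 3 days old. Within each genotype, mice received repeated intraperitoneal injections of vehicle or of DMXAA, a small molecule that activates mouse STING and through it the production of type I interferon. Since the genotypes differ in age as well, genotype cannot be told apart from age and cohort. The Ifnar1 deletion is present in every cell of the mice that carry it, so it does not separate responses of astrocytes from those of other cells. The question for each gene was whether its level changed with DMXAA in WT mice, and whether it did so in mice without the receptor.

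Astrocytes respond to injury and inflammation with a change of state known as reactivity, in which intermediate filament genes, cytokine receptor genes and genes of secreted proteins are raised to different degrees. Signals that act through the shared receptor subunit gp130 and the transcription factor STAT3, such as oncostatin M and leukaemia inhibitory factor, and cytokines released by microglia, such as interleukin 1, are known to drive it. Interferon acts through a different receptor and mainly through a complex with STAT2 and IRF9, which binds the interferon-stimulated response element (ISRE) in the promoters of responding genes.

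Ifnar1 itself was at 16.8 to 19.3 CPM (the UMIs of a gene per 1e6 UMIs of the nuclei summed) over all nuclei of the WT vehicle libraries, at 13.8 to 19.7 in WT DMXAA, at 10.7 to 12.1 in Ifnar1-/- vehicle and at 10.8 to 12.3 in Ifnar1-/- DMXAA, so 3′ counts of Ifnar1 persisted at a lower level in the knockout. The files held 7869 to 12457 barcodes per library, and 108878 nuclei were kept after filters and doublet removal. Of the 116417 distinct barcode sequences that passed the filters, 1767 occurred in 2 or more libraries. Nuclei fell into 12 classes named from marker genes, with 11476 left unnamed, and none of the 9 genes was used to form or name a class. Astrocytes were 1 cluster of 14172 nuclei with 10 of 10 astrocyte markers, 654 to 1073 nuclei and 1948615 to 3729310 UMIs per library. WT DMXAA replicate 3 stood apart. Of 839 nuclei in 1 astrocyte subcluster led by Slit3 and Cntnap2, 751 came from it, and its summed excitatory neuron markers in astrocytes were the highest of all libraries (427 CPM, with group means from 162 to 241). Of the 4 WT DMXAA libraries it also had the lowest astrocyte level of 7 of 8 interferon-response genes, whose summed level was 351 CPM in it, 1368, 517 and 418 CPM in replicates 1, 2 and 4, and 104 to 150 CPM in WT vehicle. Replicate 1 was the highest of the 4 for all 8 genes. It also had the lowest summed astrocyte markers of all 16 libraries, at 15315 CPM against 19125 to 20336 CPM in WT vehicle.

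Promoters of 8 of the 9 genes were found in the RefSeq table (GRCm38.p6). They are set here beside promoters of genes that rose in WT astrocytes, because the 9 genes and the interferon genes differed in their values below. The 250 bases before each RefSeq start were searched on both strands for the ISRE core (GAAA and GAAA separated by any 2 bases) and for the STAT dimer motif GAS (TTC and GAA separated by any 3 bases). The ISRE core was found in 978 of 32851 promoters (2.98%), in 0 of the 8, and in 7 of the 20 promoters matched among genes that rose in WT astrocytes (35%). Of 9 interferon-response genes with a RefSeq promoter, 5 had it. The interferon genes Irf9, Oasl2 and Rnf213, which rose in WT astrocytes, had no match in this window. The GAS was found in 2306 of all promoters (7.02%) and in 1 of the 8, that of Steap4. A match is a description of letters, not a bound site, and no match says only that these letters are not in this window. The stretches below begin 120 bases before the RefSeq start and stop where GENCODE places an exon of the gene. They show the interferon genes Ifit1 and Ddx60, each with 2 ISRE cores in capitals, Steap4 with its GAS in capitals, and Gfap with neither motif.
Ifit1, chr19:34640769-34640870, plus strand: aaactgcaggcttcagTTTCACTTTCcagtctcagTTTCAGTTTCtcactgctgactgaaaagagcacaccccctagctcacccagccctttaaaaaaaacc
Ddx60, chr8:61927967-61928086, plus strand: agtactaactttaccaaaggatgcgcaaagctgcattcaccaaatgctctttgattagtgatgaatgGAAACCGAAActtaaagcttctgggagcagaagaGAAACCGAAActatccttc
Steap4, chr5:7960352-7960456, plus strand: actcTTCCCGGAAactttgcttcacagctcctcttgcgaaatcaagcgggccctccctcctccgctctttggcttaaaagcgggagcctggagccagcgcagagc
Gfap, chr11:102897201-102897320, minus strand: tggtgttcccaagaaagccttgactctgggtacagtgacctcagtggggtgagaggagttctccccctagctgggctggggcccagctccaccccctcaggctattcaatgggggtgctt

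Of the 9 genes, Gfap alone had most of its UMIs in astrocytes. Gfap (chr11:102887336-102900912, minus strand, GRCm38), which encodes the intermediate filament protein of astrocytes, had 84.3% of its 6878 UMIs in the astrocyte class, at 123 CPM pooled over libraries. The next class was ependymal nuclei at 22.3 CPM pooled. The lowest astrocyte library (83.4 CPM) lay above the highest of the 4 libraries with at least 20 ependymal nuclei (20.5 CPM), all from Ifnar1-/- mice. Smaller ependymal libraries were not compared. All other classes held Gfap at 4.63 CPM or less.

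Vim (chr2:13573927-13582826, plus strand), the intermediate filament gene of mesenchymal, vascular and reactive glial cells, was highest in endothelial nuclei at 315 CPM, followed by ependymal nuclei at 71.5, fibroblasts at 36.2 and pericyte and smooth muscle nuclei at 26.9. Astrocytes held Vim at 9.72 CPM, which was 28.9% of its UMIs. Osmr (chr15:6813577-6874969, minus strand), which encodes the oncostatin M receptor subunit that pairs with gp130, was highest in pericyte and smooth muscle nuclei at 179 CPM and in endothelial nuclei at 141, and the libraries of these classes overlapped. Fibroblasts held Osmr at 41.3 CPM and astrocytes at 13.9, each with its lowest library above the highest library of the class that followed, and astrocytes carried 47.6% of all Osmr UMIs.

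Cd44 (chr2:102811141-102901665, minus strand), which encodes the hyaluronan receptor, was highest in ependymal nuclei at 36.4 CPM, in the microglia class at 20.9 (11.6 without nuclei holding at least 2 neutrophil genes, below astrocytes) and in astrocytes at 15.8, while excitatory neurons, the most numerous class, carried 49.97% of its UMIs at 3.66 CPM. Cd109 (chr9:78615546-78716253, plus strand), a membrane-anchored protein that can bind transforming growth factor beta, was highest in ependymal nuclei at 153 CPM against 10.501 in fibroblasts and 4.73 in astrocytes. Both genes thus had their highest pooled level in the ciliated lining of the ventricles, a class of only 354 nuclei. All 4 libraries with at least 20 ependymal nuclei were from Ifnar1-/- mice. Cd44 in these libraries (19.6 to 56.4 CPM) overlapped Cd44 in the microglia class (2.31 to 97.4 CPM) and in astrocytes (8.52 to 24.2 CPM).

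The remaining genes were sparse. Serpina3n (chr12:104406729-104414329, plus strand), a secreted serine protease inhibitor gene whose close copies lie beside it, so that counts may be split between them, had 68.9% of its 950 UMIs in excitatory neurons at 1.67 CPM and stood at 1.88 CPM in astrocytes. Timp1 (chrX:20870166-20874735, plus strand), an inhibitor of matrix metalloproteinases, had 72.9% of its UMIs in excitatory neurons and its highest level, 3.73 CPM, in fibroblasts. Steap4 (chr5:7960457-7982213, plus strand), a metalloreductase gene, had 57 UMIs in all, of which pericyte and smooth muscle nuclei held 33.3%. Lcn2 (chr2:32384633-32388252, minus strand), which encodes the iron-scavenging secreted protein lipocalin 2, had 210 UMIs in all, of which the microglia class held 55.2% and endothelial nuclei 14.8%.

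**Figure D1:**
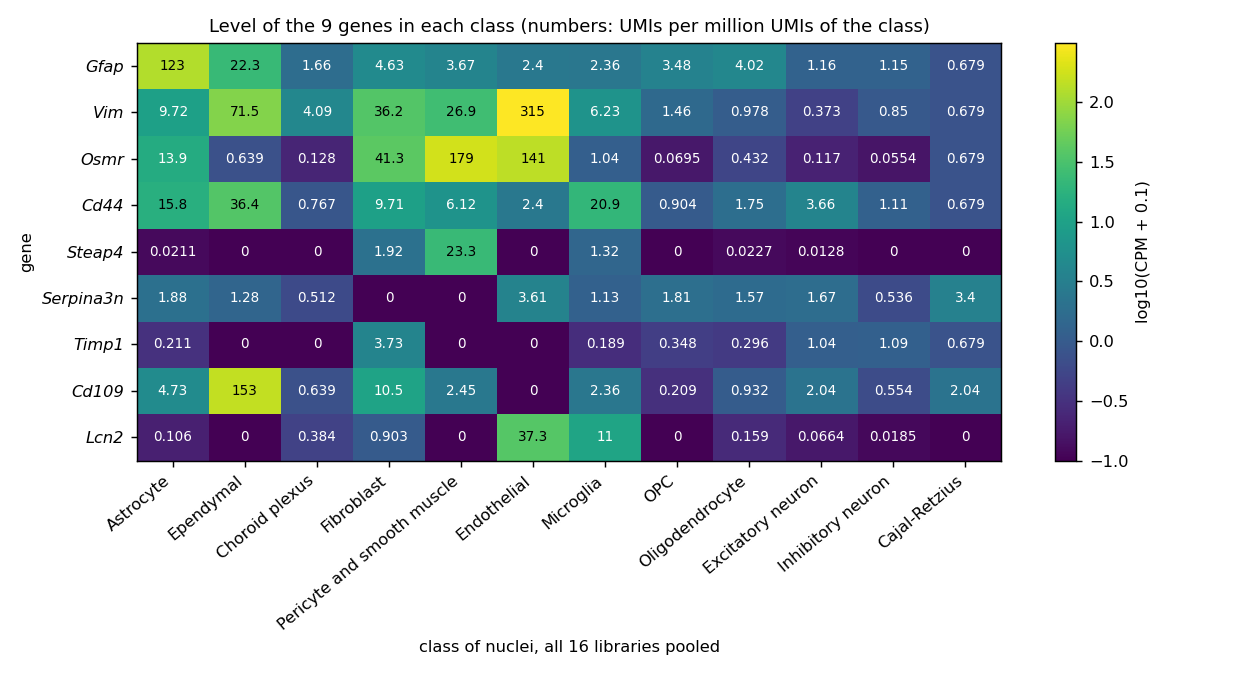
Level of each of the 9 genes (rows) in each of 12 classes of nuclei (columns), as CPM of the class with all 16 libraries pooled; colour is log10(CPM + 0.1). Gfap peaks in astrocytes at 123 CPM, whereas Vim peaks in endothelial nuclei at 315, Osmr in pericyte and smooth muscle nuclei at 179 and Cd109 in ependymal nuclei at 153.

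In astrocytes none of the 9 genes passed the test for DMXAA against vehicle, in either genotype. The test was edgeR's quasi-likelihood test on UMIs summed per library, and genes were called where the Benjamini-Hochberg adjusted p was below 0.05 with a log2 change of more than 0.1 either way. Gfap, Vim, Osmr, Cd44 and Cd109 had enough counts to be tested. In WT, 0 of these 5 were called against 0.233% of all 13331 genes tested (29 higher and 2 lower), and 0 of 5 reached an unadjusted p under 0.05 against 848 genes. Without WT DMXAA replicate 3, 0 of the 9 genes were called, against 1.29% of 13604 genes (113 higher and 63 lower). In Ifnar1-/-, 0 of 5 were called against 0% of all genes, and 1 of 5, Cd44, reached an unadjusted p under 0.05 against 717 genes. DESeq2 called 0 of the 5 in both genotypes, and 65 and 0 of all genes.

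Gfap in WT astrocytes was at 122, 167, 139 and 107 CPM in the vehicle libraries and at 112, 204, 99.2 and 161 CPM in the DMXAA libraries. The ranges overlapped, with the highest and the lowest library both in the DMXAA group. The log2 fold change was 0.21 ± 0.19 (SE, 95% interval -0.20 to 0.61, edgeR adjusted p = 0.908, n = 4 and 4), so the interval's upper end lies below a doubling. Here and below, SEs and intervals of log2 fold changes are those that the edgeR p-value implies. Without the receptor, Gfap in astrocytes was at 83.4, 86.8, 116 and 124 CPM with vehicle and at 120, 100.05, 117 and 143 CPM with DMXAA. These ranges overlapped too, with a log2 fold change of 0.21 ± 0.19 (95% interval -0.19 to 0.62, adjusted p = 0.894).

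Vim in WT astrocytes was at 8.99, 18.2, 10.7 and 10.4 CPM with vehicle and at 17.4, 21.4, 3.52 and 16.009 with DMXAA. Of the DMXAA libraries, 3 were high, and replicate 3, the library that stands apart, was the lowest of all 16. The log2 fold change was 0.34 ± 0.36 (95% interval -0.42 to 1.11, adjusted p = 0.920), and 0.66 without that library (adjusted p = 0.257). In Ifnar1-/- astrocytes Vim was at 6.70, 4.71, 7.14 and 5.14 CPM with vehicle and at 12.3, 7.77, 5.85 and 8.95 with DMXAA, with a log2 fold change of 0.52 ± 0.38 (95% interval -0.29 to 1.33, adjusted p = 0.894).

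Osmr, the receptor gene that makes astrocytes sensitive to oncostatin M, was at 6.15, 15.3, 17.9 and 10.07 CPM in WT astrocytes with vehicle and at 16.4, 18.6, 11.7 and 12.3 with DMXAA. The vehicle libraries spanned the DMXAA libraries almost fully. The log2 fold change was 0.34 ± 0.28 (95% interval -0.24 to 0.92, adjusted p = 0.887). Osmr in Ifnar1-/- astrocytes was at 11.8, 17.3, 10.4 and 15.7 CPM with vehicle and at 11.6, 13.7, 15.3 and 18.8 with DMXAA, a log2 fold change of 0.09 ± 0.26 (adjusted p = 0.959).

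Cd44 in WT astrocytes was at 8.52, 12.4, 15.6 and 12.4 CPM with vehicle and at 11.8, 13.5, 13.7 and 9.34 with DMXAA, a log2 fold change of 0.07 ± 0.33 (95% interval -0.63 to 0.78, adjusted p = 0.993). The group means ran the other way, at 12.2 CPM with vehicle and 12.1 with DMXAA. With libraries scaled by their totals alone, without edgeR's TMM factors, the log2 fold change was -0.04 ± 0.19, so no direction is read. Both SEs are implied by p-values and are unreliable for changes this small. In Ifnar1-/- astrocytes it was at 15.8, 17.0, 14.004 and 16.3 CPM with vehicle and at 20.3, 18.0, 23.1 and 24.2 with DMXAA. Here the groups did not overlap, and each DMXAA library was above each vehicle library, with values by subcluster given below. The log2 fold change of 0.42 ± 0.17 (95% interval 0.05 to 0.79, edgeR unadjusted p = 0.0271, exact permutation p = 0.0286) did not pass the correction over all genes (edgeR adjusted p = 0.888). The effect of DMXAA on Cd44 was not shown to differ between the genotypes (difference -0.35 ± 0.26 on the log2 scale, adjusted p = 0.772).

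Cd109 in WT astrocytes was at 4.73, 9.95, 3.04 and 1.48 CPM with vehicle and at 10.3, 6.97, 3.52 and 2.33 with DMXAA. Both groups were widely spread and overlapped, and the log2 fold change of 0.35 ± 0.50 had an interval from -0.71 to 1.40 (adjusted p = 0.959). The 8 Ifnar1-/- libraries lay between 2.83 and 6.21 CPM, with a log2 fold change of 0.19 ± 0.47 (adjusted p = 0.954).

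Serpina3n, Lcn2, Timp1 and Steap4 had too few UMIs in astrocytes for the fit. Serpina3n had 3, 10, 1 and 4 UMIs with vehicle and 13, 14, 3 and 3 with DMXAA in WT astrocytes, so 2 DMXAA libraries were high and the other two were in the range of the vehicle libraries. The pooled ratio was 2.00 (95% counting interval 1.09 to 3.77), while the difference between library means gave an exact two-sided permutation p of 0.314. Serpina3n in Ifnar1-/- astrocytes had 4, 3, 3 and 7 UMIs with vehicle and 5, 6, 5 and 5 with DMXAA (ratio 1.29, counting interval 0.648 to 2.60, exact permutation p = 0.314).

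Lcn2 was absent from the vehicle astrocytes of both genotypes and had 3, 0, 2 and 0 UMIs in the WT DMXAA libraries and 0 in the Ifnar1-/- DMXAA libraries. The exact permutation p was 0.429. The 5 UMIs lay in 5 of 3061 WT DMXAA astrocyte nuclei, 0.163% (exact binomial 95% interval 0.0531% to 0.381%, counting error only, library medians of 2770 to 3177 UMIs per nucleus). Excitatory neurons of WT DMXAA had Lcn2 in 17 of 12272 nuclei, 0.139% (0.0807% to 0.222%, medians of 7486 to 8539 UMIs). Per UMI the astrocytes of WT DMXAA averaged 0.580 CPM and the excitatory neurons 0.195 CPM. Lcn2 in excitatory neurons was itself higher with DMXAA, with 0, 1, 1 and 0 UMIs in WT vehicle and 1, 7, 10 and 3 in WT DMXAA (ratio 10.8, counting interval 2.64 to 94.9, exact permutation p = 0.0286, for CPM that did not overlap). Of these WT DMXAA UMIs, 9 lay in 27 nuclei that held at least 2 neutrophil genes (listed below). The other 12245 nuclei held 12, in 12 nuclei, and the values above include both sets. In WT vehicle 4 nuclei held neutrophil genes, with 0 Lcn2 UMIs. Whether the 5 astrocyte UMIs came from astrocytes or from free RNA was not tested. Timp1 had 4 UMIs in each WT group (exact permutation p = 0.714) and 2 against 0 in Ifnar1-/-, and Steap4 had 1 UMI in all 16 libraries. The exact tests of these 4 genes in astrocytes were 4 in all and unadjusted, and with 4 libraries a side the smallest exact p is 0.0286.

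**Figure D2:**
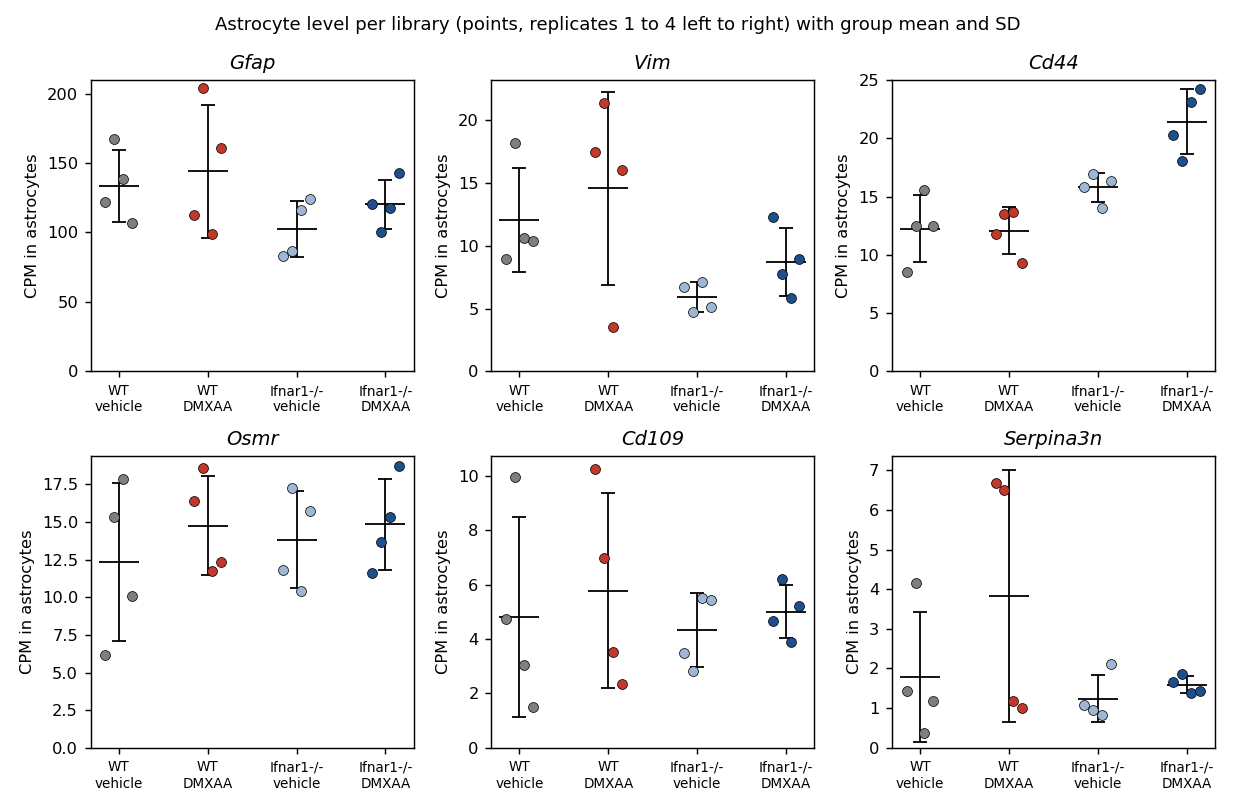
CPM in astrocytes per library (points, replicates 1 to 4 from left to right), with the group mean (horizontal bar) and SD (error bar), for 6 of the 9 genes; each axis starts at 0. The WT groups overlap for every gene shown, and Cd44 in Ifnar1-/- runs from 14.004 to 17.0 CPM with vehicle and from 18.0 to 24.2 with DMXAA.

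Genes of the interferon response rose in the same WT astrocyte libraries. Of 11 interferon-response genes, 8 were tested, 7 rose in WT and 0 in Ifnar1-/-, and in each WT DMXAA library all 8 were above every WT vehicle library. Ifit1, a translation inhibitor of the antiviral response, rose by 4.87 ± 0.60 on the log2 scale (adjusted p = 0.0007), and Ddx60, a helicase, by 4.61 ± 0.43 (adjusted p = 8.27e-05). The other called genes were Stat2 (1.93), Irf9 (2.18), Usp18 (4.05), Oasl2 (4.75) and Rnf213 (1.60), while Parp14 was at 2.86 ± 0.60 (adjusted p = 0.0591). The median log2 fold change of the 8 was 3.46 in WT, whereas the 5 reactive genes had a median of 0.34 with 5 of 5 above 0, and all genes tested a median of 0.02. With library totals alone these medians were 3.38, 0.24 with 4 of 5 above 0 (Cd44 was below), and -0.08. In Ifnar1-/- the medians were 0.23 for the interferon genes, 0.21 for the reactive genes and 0.00165 for all genes. The difference of the DMXAA effect between genotypes was called for 0 of the 5 reactive genes and for 0 of the 8 interferon genes, against 0% of all genes, with 927 genes at an unadjusted p under 0.05, and DESeq2 called it for 0 of the 5 reactive genes and 19 of all genes. The genotypes were therefore not shown to differ in these effects by edgeR. For the 8 interferon genes the log2 differences were 1.61 to 4.48 (median 2.43, 8 of 8 above 0, lowest edgeR adjusted p = 0.0600). For the 5 reactive genes they were -0.35 to 0.25 (median -0.00649, 2 above 0 and 3 below, lowest edgeR adjusted p = 0.772).

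**Figure D3:**
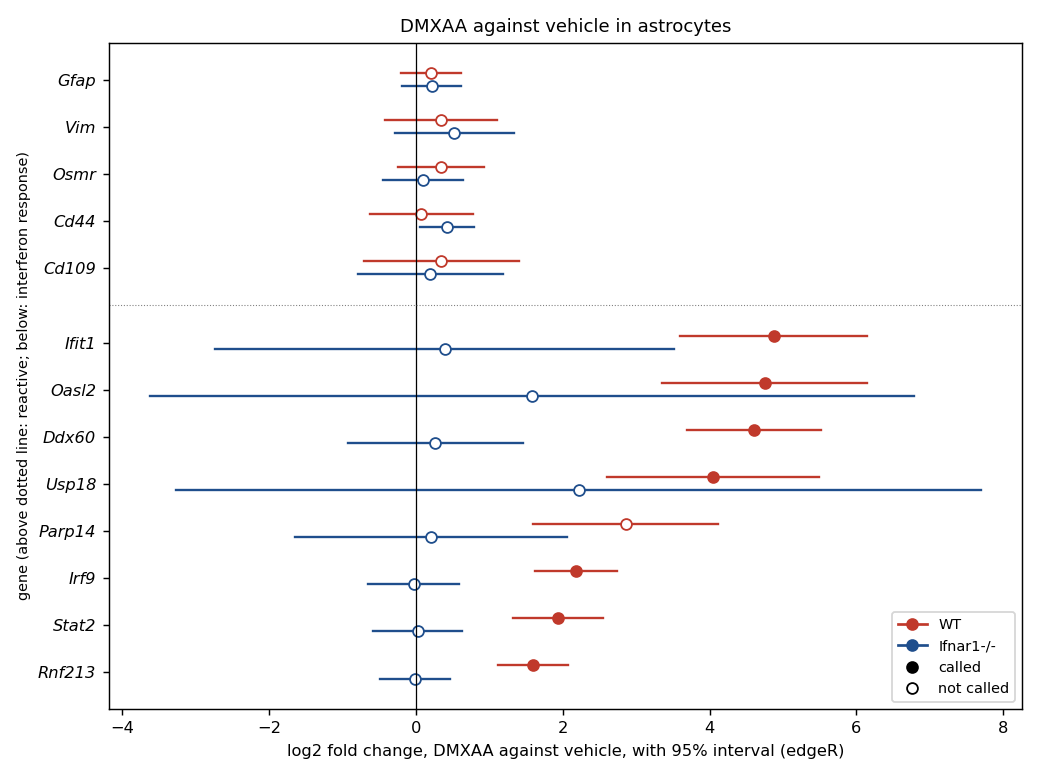
Log2 fold change of DMXAA against vehicle in astrocytes with the 95% interval that edgeR's p-value implies, for the 5 reactive genes tested (above the dotted line) and the 8 interferon-response genes tested (below it), in WT (red) and Ifnar1-/- (blue). Filled points were called. The reactive genes lie between 0.07 and 0.52 with none called (Cd44 in WT is at -0.04 with library totals alone), and 7 interferon genes lie between 1.60 and 4.87 in WT and were called.

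Without DMXAA, Cd44 was higher in Ifnar1-/- than in WT astrocytes, by 0.51 ± 0.19 on the log2 scale (edgeR adjusted p = 0.0465), 1 of the 5 genes called, against 29.7% of all genes. The call was lost with library totals alone (0.35 ± 0.18, adjusted p = 0.153), with DESeq2, with no low-count filter, with called doublets kept, and with any 1 of 12 of the 16 libraries left out. Vim was at a log2 difference of -0.86 ± 0.38 (adjusted p = 0.0955), Gfap at -0.23 ± 0.19 (adjusted p = 0.375), Osmr at 0.31 ± 0.27 (adjusted p = 0.389) and Cd109 at 0.05 ± 0.49 (adjusted p = 0.947). The share of 1 in 5 is near the background of this contrast. Of all genes called in it, 1826 were higher and 2136 lower in Ifnar1-/-, against 1034 and 3058 with library totals alone. The vehicle astrocytes of the genotypes also fell into different subclusters when the class was clustered again without the 9 genes. Subcluster 0 held a mean of 75.4% of Ifnar1-/- vehicle and 8.51% of WT vehicle astrocytes, and subcluster 1 held 0.687% and 68.9%. The part of this division in the Cd44 difference was not tested.

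The share of astrocyte nuclei with a Gfap UMI overlapped between vehicle and DMXAA in both genotypes. With each nucleus thinned to 1000 UMIs and shallower nuclei left out, the shares in WT were 10.3%, 13.6%, 12.2% and 9.52% with vehicle and 11.1%, 15.3%, 9.84% and 14.4% with DMXAA, overlapping groups with a difference of 1.26 percentage points (exact permutation p = 0.429). In Ifnar1-/- the shares were 6.096%, 7.64%, 11.2% and 10.9% with vehicle and 10.4%, 10.2%, 10.3% and 11.3% with DMXAA, a difference of 1.60 points (exact permutation p = 0.371). In excitatory neurons, which should lack Gfap, the thinned group means were 0.125% to 0.170%. Without thinning the astrocyte group means were 24.7% and 28.2% in WT and 22.7% and 24.98% in Ifnar1-/-.

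Within the astrocyte class the genes were uneven, which gives the scale against which the DMXAA differences can be read. The class was clustered again without the 9 genes, and 2 of 8 subclusters held Gfap at 395 and 342 CPM, compared with 211 in subcluster 3 and 74.3 to 126 in the others. The first of these, subcluster 2 of 1176 nuclei, was led by Myoc, a marker known from astrocytes at the brain surface, and Nrp2. The second, subcluster 6 of 387 nuclei, was led by Zic4 and Otx2os1. Cd44 was at 67.5 and 68.4 CPM in these subclusters and at 4.50 to 31.8 in the rest, and Vim was at 27.6 and 39.2. Cd109 was highest in subcluster 6 at 33.1 CPM, followed by subcluster 3, led by Nrg1 and Thbs4, at 18.3. Gfap in subcluster 2, pooled by group, was at 465 CPM in WT vehicle, 503 in WT DMXAA, 332 in Ifnar1-/- vehicle and 347 in Ifnar1-/- DMXAA. In subcluster 6 it was at 611, 235, 289 and 371 CPM in the same order of groups, from 52, 112, 102 and 121 nuclei, so in WT it was lower with DMXAA there and higher in subcluster 2. Gfap in WT was also higher with DMXAA in subcluster 1 (79.6 and 116 CPM, from 2361 and 1708 nuclei) and in subcluster 3 (218 and 278 CPM). It was lower in subcluster 5 (142 and 84.6 CPM, from 104 and 117 nuclei). Subclusters 0, 4 and 7 had only 19, 3 and 11 nuclei in a WT group. Of the 798 astrocytes of WT DMXAA replicate 3, 751 were in subcluster 4. The WT DMXAA values of the other subclusters thus hold little from that library. Over all its astrocytes it had the lowest Gfap level of the WT DMXAA libraries. The pooled order of the subclusters did not hold in each group. In WT DMXAA subcluster 3 was above subcluster 6 for Gfap, at 278 CPM, and for Cd109, at 21.4 against 18.6 CPM. Cd44 in Ifnar1-/- had 16 UMIs with vehicle and 51 with DMXAA in subcluster 6 (42.0 and 115 CPM). In subcluster 7 it had 4 and 27 (16.5 and 42.0 CPM, from 61 and 164 nuclei), and Ifnar1-/- DMXAA replicate 4 gave 80 of its nuclei. Subcluster 0 had 95 and 98 (8.85 and 11.4 CPM), and subcluster 2 had 89 and 80 (75.7 and 78.6 CPM). Subcluster 3 was at 13.2 and 12.8 CPM, and the rest had at most 14 UMIs in an Ifnar1-/- group. These values are given without a test. In the subcluster where WT DMXAA replicate 3 dominated, Gfap was at 96.9 CPM and Vim at 2.57.

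**Figure D4:**
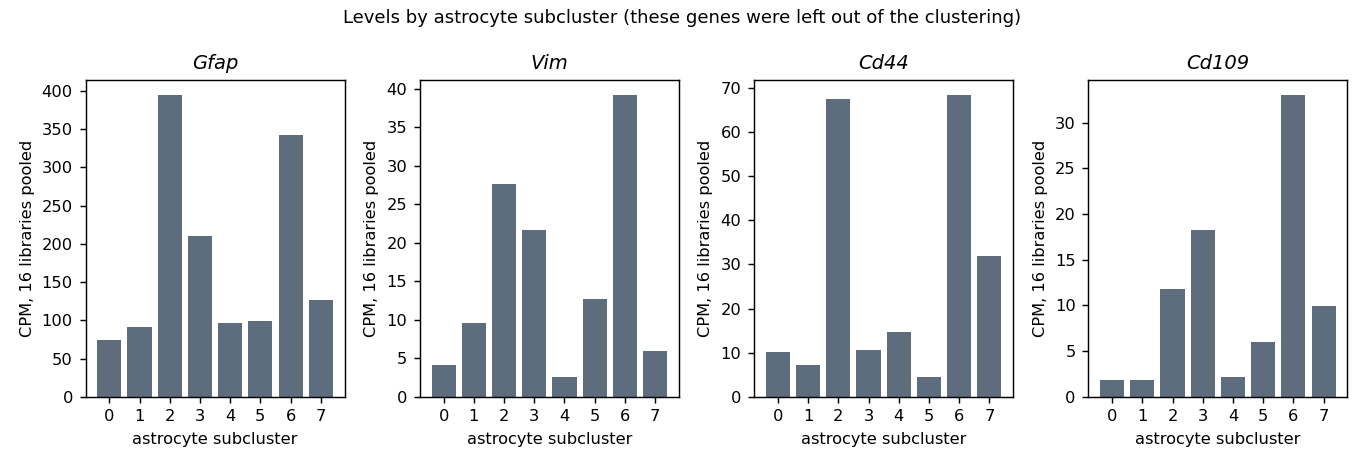
CPM of Gfap, Vim, Cd44 and Cd109 in the 8 astrocyte subclusters (bars, 16 libraries pooled, axes from 0). Subclusters 2 and 6 stand above the others for Gfap and Cd44, and subcluster 6 is highest for Vim and Cd109, in this pooled view. In WT DMXAA alone, subcluster 3 is above subcluster 6 for Gfap (278 and 235 CPM), Vim (42.7 and 37.1) and Cd109 (21.4 and 18.6).

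The wider reactivity lists held 0 called genes in astrocytes of either genotype. Of the 13 pan-reactive genes, which include 8 of the 9 genes here, 7 were tested and 0 were called in WT astrocytes (median 0.22, 7 of 7 above 0, and 5 of 7 with library totals alone). Aspg, an asparaginase gene, had the lowest p among them with a log2 fold change of 0.56 ± 0.30 (adjusted p = 0.812). Of the 12 genes of the A2 list, first described after ischaemia, Cd109 and S100a10 were tested and 0 called (median 0.18), with S100a10 at 0.00673 ± 0.35. Of the 12 genes of the A1 list, first described after inflammation, 6 were tested and 0 called, with a median of 1.25 and 6 of 6 above 0.

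In the A1 list the lowest p values were those of H2-D1, Iigp1 and Fbln5. H2-D1, a class I histocompatibility gene that is also an interferon target, had 14, 18, 17 and 26 UMIs in WT vehicle astrocytes and 64, 79, 12 and 95 with DMXAA. Of the DMXAA libraries, 3 were above every vehicle library and replicate 3 was below them all. Its log2 fold change was 1.96 ± 0.40 (adjusted p = 0.0503), and 2.30 without replicate 3 (adjusted p = 6.42e-07). Iigp1, an interferon-inducible GTPase gene, was at 2.54 ± 0.60 (adjusted p = 0.141), and at 2.78 without replicate 3 (adjusted p = 0.00844). Fbln5, an extracellular matrix gene, was at 1.23 ± 0.47 (adjusted p = 0.639). Over the 3 lists, 0 were called in WT. Without WT DMXAA replicate 3, H2-D1 and Iigp1 were called, as were H2-T23 and Psmb8, which had too few counts to be tested with all libraries and entered only as the filter changed. None of the 9 genes was among them. Replicate 3 was set apart partly for its low interferon genes, so a stronger result for interferon targets without it was partly fixed in advance. Its omission also raised the genes called in Ifnar1-/- astrocytes, whose libraries were the same, from 0 to 52. In Ifnar1-/- astrocytes 0 were called in each list, with medians of 0.21 (pan-reactive), 0.15 (A1) and 0.22 (A2).

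Of 15 genes of the gp130 and STAT3 axis, 8 were tested in astrocytes and 0 called in WT, with a median of 0.11. Stat3, the transcription factor of this axis, was at 77.1 to 103 CPM with vehicle and 91.9 to 133 with DMXAA in WT astrocytes (log2 fold change 0.35 ± 0.14, 95% interval 0.05 to 0.66, edgeR unadjusted p = 0.0257, adjusted p = 0.682), and Lifr, the receptor gene for leukaemia inhibitory factor, was at 0.22 ± 0.11 (adjusted p = 0.787). Cntfr, the receptor gene for ciliary neurotrophic factor, was at -0.14 ± 0.10. Socs3, a feedback target of STAT3, had 7 UMIs in WT vehicle and 6 in WT DMXAA astrocytes. In Ifnar1-/- astrocytes the axis had a median of 0.01 with 0 called.

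Among the microglial inducers, Il1a, C1qa, C1qb and C1qc were tested in the microglia class and 0 of 4 were called in WT (log2 fold changes 0.02, -0.01, -0.24 and -0.25, adjusted p from 0.908). Il1a, the interleukin 1 alpha gene, had 29, 30, 21 and 20 UMIs with vehicle and 42, 25, 9 and 38 with DMXAA, overlapping groups. Osm, the ligand gene for Osmr, had 10 UMIs in WT vehicle and 13 in WT DMXAA microglia, and 0 in astrocytes of all groups. In astrocytes the complement genes C1qc, C1qa and C1qb, which mark microglia, were at 0.73 ± 0.40, 0.58 ± 0.45 and -0.10 ± 0.34, none called. Of 6 intermediate filament and linker genes, 4 were tested and 0 called in WT astrocytes (median 0.20), with Plec at 0.19 ± 0.17 and Synm at 0.00432 ± 0.36. Of 16 homeostatic astrocyte genes, all were tested and 0 called (median -0.10, 11 below 0), from Mfge8 at -0.53 ± 0.30 to Slc4a4 at 0.20 ± 0.09, with Slc7a10 at -0.27 ± 0.12. With library totals alone their median was -0.20, with 2 of 16 above 0, against a median of -0.08 for all genes. In Ifnar1-/- the homeostatic genes had a median of 0.13 with 0 called.

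In the other classes that could be fitted, 0 pairs of gene and class were called in either genotype. Excitatory neurons allowed 6 of the 9 genes, of which 0 were called in WT (0.119% of all genes) and 0 in Ifnar1-/- (0%). Serpina3n was at a log2 fold change of 0.31 ± 0.32 in WT excitatory neurons, where replicate 3 of WT DMXAA, at 0.720 CPM, was the lowest library and the other three were at 2.54 to 3.23. Timp1 was at -0.36 ± 0.28 in WT and 0.65 ± 0.30 in Ifnar1-/- (edgeR adjusted p = 0.782), where its 63 UMIs with vehicle and 103 with DMXAA gave CPM that did not overlap (exact permutation p = 0.0286). Cd44 in Ifnar1-/- excitatory neurons was at 4.24, 3.83, 5.39 and 5.52 CPM with vehicle and at 3.62, 3.096, 3.63 and 0.652 CPM with DMXAA. Each DMXAA library was below each vehicle library (ratio 0.600, counting interval 0.514 to 0.700, exact permutation p = 0.0286), while the fit gave -0.87 ± 0.54 (edgeR adjusted p = 0.782). These exact p-values are unadjusted, from tests run over the 9 genes and all classes. In WT Cd44 was at 0.07 ± 0.53 in these neurons by the fit and at -0.09 with library totals alone, with group means of 3.51 CPM with vehicle and 3.26 with DMXAA. Gfap, Vim and Cd109 were at 0.22 ± 0.25, 0.44 ± 0.56 and -0.06 ± 0.35 in WT and at 0.00535 ± 0.27, -0.38 ± 0.67 and -0.13 ± 0.36 in Ifnar1-/-. Fibroblasts allowed Vim and Osmr, with log2 fold changes of 0.12 ± 0.39 and 0.13 ± 0.30 in WT, and 0 called (0% of all genes in both genotypes). Oligodendrocytes allowed Gfap at -0.06 ± 0.37 in WT and 0 called (0% in both genotypes). None of the 9 genes could be tested in oligodendrocyte precursors (0.166% of all genes called in WT and 0% in Ifnar1-/-) or in inhibitory neurons (0% in both).

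Endothelial nuclei were too few to fit, at 5 to 35 per library, but Vim, the main filament gene of these cells, was counted there. It had 6, 2, 3 and 21 UMIs in WT vehicle and 11, 62, 18 and 35 in WT DMXAA endothelial nuclei. The pooled ratio was 2.34 (counting interval 1.58 to 3.57), the groups overlapped, and the exact permutation p over libraries was 0.0857. In Ifnar1-/- the ratio was 0.613 (counting interval 0.377 to 0.967, exact permutation p = 0.229).

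Lcn2 had the largest fold change of the 8 genes that could be tested over all nuclei. Over all nuclei of a library it had 0, 2, 2 and 0 UMIs in WT vehicle and 42, 47, 83 and 19 in WT DMXAA. Every WT DMXAA library was above every vehicle library, at 0.573 to 1.62 CPM against 0 to 0.055. The log2 fold change in a fit over all nuclei, a sum chosen after the class values had been seen, was 5.42 ± 0.64 (95% interval 4.05 to 6.79, edgeR adjusted p = 0.000523), and 5.03 without WT DMXAA replicate 3 (adjusted p = 0.00019). Lcn2 was 1 of 8 genes called there, against 0.483% of all genes tested. It passed the low-count filter only through the WT DMXAA libraries, since no other library had more than 5 UMIs, so the gene could enter the fit only by being high in that group, and the call is no support beyond the counts themselves. In such a sum, more nuclei of a type and more RNA per nucleus cannot be told apart.

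In Ifnar1-/- mice Lcn2 had 0, 1, 0 and 1 UMIs with vehicle and 5, 3, 4 and 1 with DMXAA over all nuclei. The groups touched at 1 UMI, and the log2 fold change of 2.42 ± 1.0003 was not called (edgeR adjusted p = 0.761, exact permutation p over CPM = 0.0571). Of the DMXAA UMIs, 5 lay in 2 microglia-class nuclei and 5 in 1 unnamed nucleus, each with at least 2 neutrophil genes (listed below). That unnamed nucleus held all 5 UMIs of replicate 1. With vehicle, 1 UMI lay in an excitatory neuron nucleus with neutrophil genes. Of the 8 genes tested, 0 were called in Ifnar1-/- (0% of all genes, with 1204 at an unadjusted p under 0.05, while DESeq2 called 3). The difference of the Lcn2 effect between genotypes was 3.01 ± 1.77 (adjusted p = 0.750), so it was not shown to differ, and 0 of 8 genes were called for that difference against 0.0498% of all genes.

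The 191 Lcn2 UMIs of the WT DMXAA libraries lay mostly outside astrocytes. Astrocytes held 5, endothelial nuclei 30, excitatory neurons 21 and the microglia class 111. Lcn2 in the microglia class had 0 UMIs in all WT vehicle libraries and 7, 33, 58 and 13 in WT DMXAA, at least 30.6-fold higher against a floor of 3 counts over the vehicle group (exact permutation p = 0.0286, the smallest possible). In Ifnar1-/- it had 0 with vehicle and 0, 2, 3 and 0 with DMXAA. Too few libraries held Lcn2 for the low-count filter in this class. With no filter it was called (adjusted p = 0.000102, against 1.16% of all genes), while with the filter 0 of 1 gene tested was called, against 1.97% in WT (187 genes, and 773 or 7.99% without WT DMXAA replicate 3) and 0% in Ifnar1-/-.

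Of the 37 microglia-class nuclei of WT DMXAA that held Lcn2, 30 also held at least 2 neutrophil genes and 7 did not. Of 10 neutrophil genes (S100a8, S100a9, Ngp, Camp, Ltf, Retnlg, Mmp8, Mmp9, Cxcr2 and Chil3, listed after the Lcn2 counts had been seen), the microglia class had 25, 42, 1 and 5 UMIs in WT vehicle, 171, 291, 2115 and 210 in WT DMXAA, 0, 29, 8 and 1 in Ifnar1-/- vehicle and 1, 125, 39 and 13 in Ifnar1-/- DMXAA. The 98 nuclei of the class with at least 2 of these genes had 10 of 10 neutrophil genes at 18674 CPM in sum and 8 of 8 microglia markers at 713 CPM, while the other 5318 nuclei had them at 11.02 and 9531 CPM. Monocyte genes (Ccr2, Ly6c2, Plac8, Vcan, Fn1 and Chil3, the last also in the neutrophil list) were there too, 6 of 6 at 1930 CPM in the 98 nuclei and 42.6 CPM in the others. Over the whole class they were at 28.6 to 41.1 CPM in WT vehicle and at 66.6, 223, 220 and 29.2 CPM in WT DMXAA, and their part in the Lcn2, Cd44 and Steap4 counts was not tested. In WT DMXAA the nuclei with at least 2 neutrophil genes held 298 UMIs of the monocyte list. Chil3 alone had 246 UMIs in the class, where the other nuclei held 80 UMIs of all 10 neutrophil genes. Chil3, shared by both lists, was thus a large part of the monocyte sum. Of the 98 nuclei, 89 were from WT DMXAA, 76 of them from replicate 3. They held 102 of the 111 WT DMXAA Lcn2 UMIs of the class, in 30 nuclei and in all 4 libraries.

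Without nuclei that held at least 2 neutrophil genes, the Lcn2 counts of the microglia class fell to 3, 4, 2 and 0 in WT DMXAA (at least 2.59-fold higher than vehicle, exact permutation p = 0.143). Over all nuclei, the same step left 38, 12, 20 and 6 Lcn2 UMIs in WT DMXAA against 0, 2, 2 and 0 with vehicle, still without overlap (ratio 18.6, counting interval 6.96 to 69.9, exact permutation p = 0.0286). Of those 76 UMIs, 30 were in endothelial nuclei, where 27 came from 5 of the 8 endothelial nuclei of WT DMXAA replicate 1 and up to 22 from 1 nucleus. Endothelial nuclei of WT vehicle held 1 Lcn2 UMI and those of Ifnar1-/- 0.

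**Figure D5:**
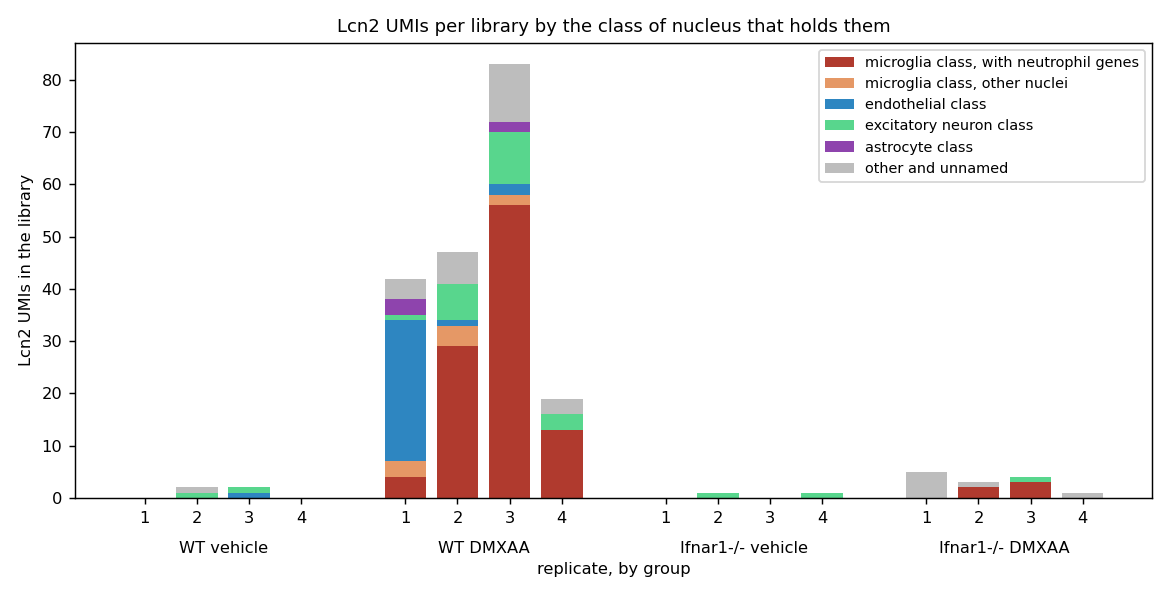
Lcn2 UMIs in each library (bars, by group and replicate), stacked by the class of the nuclei that held them; the microglia class is split by whether a nucleus held at least 2 of 10 neutrophil genes. The WT DMXAA libraries hold 42, 47, 83 and 19 UMIs, mostly in microglia-class nuclei with neutrophil genes in replicates 2 to 4 and in endothelial nuclei in replicate 1.

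Within the microglia class of WT DMXAA, the nuclei with neutrophil genes held 94 of the Cd44 UMIs, with 50 in the others, and 15 of the Vim UMIs, with 26 in the others. Cd44 had 7, 5, 15 and 4 UMIs in WT vehicle and 5, 15, 111 and 13 in WT DMXAA, where only replicate 3 was far above the others. Its log2 fold change was 1.83 ± 0.77 (edgeR adjusted p = 0.394), and 0.38 without replicate 3. Without the nuclei holding neutrophil genes the Cd44 counts in WT DMXAA were 3, 6, 32 and 9, and none of the 9 genes had enough counts to be tested (1.65% of all genes tested there were called in WT).

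Steap4 had 0 UMIs in WT vehicle and 3, 1, 9 and 0 in WT DMXAA microglia-class nuclei, and 0 in all of them once nuclei with neutrophil genes were left out. Vim had 2, 4, 2 and 2 UMIs with vehicle and 3, 13, 16 and 9 with DMXAA (exact permutation p = 0.0571), and 2, 12, 3 and 9 without those nuclei (exact permutation p = 0.314). In the microglia subcluster of 161 nuclei led by S100a9, Ltf and Ngp, to which WT DMXAA replicate 3 gave 97 nuclei, Cd44 had 149 UMIs, Lcn2 108, Vim 29 and Steap4 13. Of these Cd44 UMIs 127 were from WT DMXAA, more than the 94 in nuclei with at least 2 neutrophil genes. The nuclei left after that cut thus still hold Cd44 UMIs of this subcluster.

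Over all nuclei none of the other 7 genes tested was called for DMXAA in either genotype. Steap4, too low for that fit, had 0, 3, 2 and 1 UMIs in WT vehicle and 5, 6, 11 and 1 in WT DMXAA, a ratio of 3.74 (counting interval 1.48 to 11.2) with overlapping groups (exact permutation p = 0.0857). Without nuclei holding neutrophil genes its counts were 6 against 10 (ratio 1.63, counting interval 0.536 to 5.45, exact permutation p = 0.486). In Ifnar1-/- Steap4 had 17 UMIs with vehicle, 14 of them in replicate 2, and 11 with DMXAA (exact permutation p = 0.943). Vim was at a log2 fold change of 0.60 ± 0.29 in WT (adjusted p = 0.995) and -0.08 ± 0.29 in Ifnar1-/-, and Gfap at 0.11 ± 0.19 and 0.09 ± 0.19. Timp1 had 55, 49, 33 and 58 UMIs in WT vehicle and 51, 37, 24 and 30 in WT DMXAA, and 19, 17, 29 and 27 in Ifnar1-/- vehicle and 34, 38, 35 and 25 in Ifnar1-/- DMXAA. As CPM the Ifnar1-/- groups did not overlap (exact permutation p = 0.0286), while the fit gave 0.49 ± 0.26 (edgeR adjusted p = 0.761). Cd44 over all nuclei was at 5.01, 5.67, 5.80 and 6.13 CPM in Ifnar1-/- vehicle and at 4.75, 4.16, 4.88 and 4.02 in Ifnar1-/- DMXAA. These groups did not overlap either, but with DMXAA lower, opposite to astrocytes and in the direction of excitatory neurons, which held 49.97% of all Cd44 UMIs, and the log2 fold change was -0.41 ± 0.36 (edgeR adjusted p = 0.799, exact permutation p = 0.0286). Between the vehicle groups, Osmr was higher in Ifnar1-/- by 0.90 ± 0.25 (adjusted p = 0.00832) and Timp1 lower, at -0.71 ± 0.25 (adjusted p = 0.0300), 2 of 8 genes against 48.6% of all genes. Mean Osmr was 1.92 CPM in WT and 2.82 CPM in Ifnar1-/- vehicle libraries. The scaling moved this contrast as a whole. With library totals alone the median of all genes went from -0.06 to -0.39 and the genes called from 4504 higher and 5253 lower to 2145 higher and 9001 lower. Osmr was at 0.55 ± 0.25 and no longer called (edgeR adjusted p = 0.0729), Timp1 was at -1.03 ± 0.29 (adjusted p = 0.00743), and Gfap went from 0.33 to -0.00195. The classes with most Osmr were also larger shares of the Ifnar1-/- vehicle nuclei. Astrocytes, which held 47.6% of the Osmr UMIs, were 15.2% to 18.4% of nuclei there and 9.29% to 13.6% in WT vehicle. Fibroblasts had mean shares of 3.12% and 2.46%, pericyte and smooth muscle nuclei 0.530% and 0.365%, and endothelial nuclei 0.410% and 0.236%. Within astrocytes Osmr differed by 0.31 ± 0.27 and within fibroblasts by -0.31 ± 0.24 (edgeR adjusted p = 0.389 and 0.413), neither called, and the part of the class shares in the difference over all nuclei was not tested.

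The genes with the most similar astrocyte pattern were sought over the 16 libraries, as Pearson's r of the deviations from the group means among 13331 genes. They share libraries and depth, and the values are descriptions. For Gfap these were Timm44 (r = 0.924), Ofd1 (0.879), Gm36908 (0.873), Rida (0.858) and Trpm7 (0.849). For Vim they were Cyba (0.948), Idh3b (0.910), Sgcb (0.907), Tor2a (0.906) and Gm14798 (0.906). For Serpina3n they were Gm4951 (0.917), Cenpp (0.866), Gm17529 (0.856), Il11ra1 (0.853) and Kxd1 (0.832). Among the 9 genes themselves, the pairs with Gfap, Vim or Serpina3n ran from r = -0.300 (Vim and Cd44) to r = 0.769 (Serpina3n and Cd109), with Gfap and Vim at 0.519 and Gfap and Cd44 at 0.0239.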

How the data were processed

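Hippocampal nuclei were profiled with the 10x 3′ kit (v3.1 in the labels, v3 in the study's methods) in 16 libraries. The deposited matrices hold UMI counts per gene and nucleus, made by the authors with Cell Ranger (6.1.2 in the file header, 3.1.0 in the submitters' processing notes, which also name Seurat 3.0 and mm10), counting intronic reads. Here nuclei with 200 to 4000 genes and at most 5% mitochondrial UMIs were kept, doublets were called per library at 0.8% per 1000 barcodes, and nuclei were clustered (2000 variable genes, 30 components, 20 neighbours, Leiden resolution 0.5; Python 3.11.15, leidenalg 0.10.2) with the 9 genes left out. Clusters were named from fixed markers. UMIs were summed per library and class, with at least 20 nuclei, and tested with edgeR 4.0.16 (TMM, filterByExpr, quasi-likelihood, 4 groups in 1 fit, Benjamini-Hochberg over all genes of the class, two-sided). The study's test on single nuclei was not used, since the library is the replicate. Other tests were two-sided exact permutation tests over libraries. They were run for the 9 genes in every class and genotype with more than 3 UMIs and were not adjusted. Some can therefore reach the smallest p of 0.0286 by chance. Floors are 3 counts, intervals 95%, and floors and counting intervals cover counting error only. Positions are from GENCODE M21 (GRCm38) and promoters from RefSeq.

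The labels name no animals, so p-values measure the spread between libraries. The named genes were all 9 in every class and, from each list, every gene called in astrocytes or, where fewer than 3 were, the 3 of lowest p. Socs3, Osm, Il1a and Synm were named for their roles. H2-T23, Psmb8, the neutrophil and monocyte lists and the all-nuclei sum were chosen after values were seen. The 9 genes and all lists were chosen with earlier results of these data known. The fit was tested on simulated WT astrocyte counts of 13331 genes. It called 58 of 100 genes changed by 1 on the log2 scale, 91 of 100 changed by 2, and 3 unchanged genes. A doubling in astrocytes can therefore be missed. 1 interferon-response gene is not reported here. Alternatives were DESeq2 1.42.0, other size factors, library totals without TMM factors (added after values were seen), no filter, doublets kept, nuclei of at least 1000 UMIs, each genotype alone and each library left out.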

Additional observations from a re-analysis of the deposited data

Results flagged for a closer look

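In the 98 groups of 4 libraries checked, 3 had a library far from the other three, where chance alone gives about 1 group in 20. The number found is thus no more than chance gives. Cd44 in the microglia class of WT DMXAA replicate 3 stood at 97.4 CPM, with the other three at 6.29, 15.8 and 20.8. That library also held 2115 UMIs of the 10 neutrophil genes in the class. Without nuclei holding at least 2 of these genes, 32 of its 111 Cd44 UMIs remained. That remainder need not be free of such nuclei. Over WT DMXAA the subcluster led by S100a9, Ltf and Ngp held 127 Cd44 UMIs, against 94 in nuclei over the cut. Serpina3n in excitatory neurons of Ifnar1-/- DMXAA replicate 4 stood at 1.96 CPM, with the others at 1.09, 1.11 and 1.13. Cd109 in excitatory neurons of Ifnar1-/- vehicle replicate 2 stood at 3.00 CPM, with the others at 1.42, 1.55 and 1.65. In endothelial nuclei, a class too small for the fits, 30 Lcn2 UMIs were counted in WT DMXAA against 1 in WT vehicle.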

How the results depend on the processing

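In astrocytes 0 of the 9 genes were called for DMXAA in either genotype or for the difference between genotypes under all 7 other settings (6 for the difference) and with each of the 16 libraries left out. In the other classes 1 pair of gene and class, Lcn2 in the microglia class, was called in WT with no low-count filter, and 0 to 1 with a library left out. That pair was called in 13 of the 16 omissions (adjusted p 0.00725 to 0.0368), all but those of WT DMXAA replicates 2, 3 and 4, since a smallest group of 3 libraries lets Lcn2 pass the filter that removes it with all 16. It passed only through the WT DMXAA libraries, where it is high, so these calls are no sign of stability. Of the pan-reactive, A1 and A2 genes in WT astrocytes, 1 was called with DESeq2 size factors, 3 with no filter, 1 with DESeq2 and 0 to 4 with a library left out, where H2-T23, untested with all libraries, was called in 10 of 16 omissions. For Ifnar1-/- against WT vehicle, where Cd44 alone was called, 0 of the genes were called with library totals alone, with no filter, with DESeq2 or with doublets kept, and 0 to 2 with a library left out. Leaving out 1 library turned the sign of some uncalled log2 fold changes, with ranges of -0.00251 to 0.34 for Gfap, -0.0564 to 0.21 for Cd44 and -0.0457 to 1.01 for Cd109 in WT, and -0.0426 to 0.24 for Osmr in Ifnar1-/-. With library totals in place of TMM factors, a setting added after the data were seen, Cd44 in WT astrocytes went from 0.07 to -0.0381 and Osmr between the vehicle groups over all nuclei lost its call. Timp1 in that contrast lost its call without WT vehicle replicate 1, 2 or 4 or Ifnar1-/- vehicle replicate 1 or 2 (adjusted p up to 0.0800). Lcn2 over all nuclei in WT was called under all 7 other settings and all 16 omissions (5.03 to 5.93). There too it entered the filtered fits only through the WT DMXAA libraries, where it is high, so these calls are no sign of stability. The cause of these changes was not tested. Without WT DMXAA replicate 3, genes called over all genes rose from 187 to 773 in the WT microglia class, from 31 to 176 in WT astrocytes and from 0 to 52 in Ifnar1-/- astrocytes. DESeq2 called more genes over all genes than edgeR in WT: 65 against 31 in astrocytes, 44 against 21 in excitatory neurons, 13 against 0 in oligodendrocytes, 9 against 0 in fibroblasts and 155 against 97 over all nuclei. For the difference between genotypes it called 19 against 0 in astrocytes and 120 against 10 over all nuclei. No paired analysis was possible because the labels give no replicate numbers that pair libraries across groups. Depth limits the low genes, and Steap4 and Timp1 had too few UMIs in astrocytes to show a change. Exact tests with 3 against 4 libraries cannot go below 0.0571, so omissions say nothing about those tests.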
